A study of Mus musculus with 14 samples.

Results

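Ube2m and Mzf1 are the next panel genes after Trim28 on mouse chromosome 7, and they were read here as a pair in clones that carry a deletion of the enhancer Chen2008-1. They are 2 of the 472 genes in each deposited count table, and both were measured in all 14 clones. They were chosen from these same counts, on the allelic ratios and levels that compare clones with and without the Chen2008-1 deletion or the 2 directions of that deletion. For these genes such values are therefore given as a description, without a test, and calls there are given for other genes or as a share of the panel.

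The clones were female mouse embryonic stem cell lines from a 129 by Castaneus (CAST) hybrid, in which sequence differences assign reads to a parental copy. In the Chen2008-1 set, 6 clones (B8, D3, E3, E7, G3 and H7, genotype +/-) were deleted on the CAST chromosome. The other 2 clones of that set (D10 and D2, genotype -/+) were deleted on the 129 chromosome. In the Chen2008-25 set, 5 clones (B4, C4, G2, H2 and H4, genotype -/-) had lost that enhancer on both chromosomes and 1 clone (E6, genotype -/+) on 129. All clones were grown in serum-free medium that held LIF and small-molecule blockers of MEK and GSK3, and every clone carried a deletion. The Chen2008-25 clones, whose Chen2008-1 enhancer was intact, were the controls on chromosome 7. Each line is a single clone, so the clone set and the deleted enhancer cannot be told apart in a difference of level. The order of the signs in a genotype is not stated and was read as 129 before CAST. The opposite order would turn the sign of every modified-over-unmodified value.

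Ube2m encodes an E2 enzyme that transfers NEDD8, a small ubiquitin-like protein, to cullins. Cullins are the scaffolds of a large family of ubiquitin ligases, and NEDD8 switches these ligases on. Mzf1 encodes a zinc-finger protein with a SCAN domain, a dimerisation module shared by a group of mammalian zinc-finger transcription factors. Trim28 encodes the co-repressor that KRAB zinc-finger proteins bring to retroelements in embryonic stem cells. These roles are background and were not measured.

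The promoters of the pair are shown because the results turn on how much RNA each copy of these genes gave. The windows run from 250 bases before to 50 bases after the RefSeq start, on build GRCm38.p6. Both genes are on the minus strand in the GENCODE annotation of GRCm38, and overlap with other genes was not examined. For Ube2m the window is chr7:13038226-13038525 and for Mzf1 chr7:13054715-13055014, and both are written 5′ to 3′ in the direction of transcription. Capitals mark the single match in Ube2m to an NRF1-type motif and the single match in Mzf1 to a ZNF143-type motif.
Ube2m: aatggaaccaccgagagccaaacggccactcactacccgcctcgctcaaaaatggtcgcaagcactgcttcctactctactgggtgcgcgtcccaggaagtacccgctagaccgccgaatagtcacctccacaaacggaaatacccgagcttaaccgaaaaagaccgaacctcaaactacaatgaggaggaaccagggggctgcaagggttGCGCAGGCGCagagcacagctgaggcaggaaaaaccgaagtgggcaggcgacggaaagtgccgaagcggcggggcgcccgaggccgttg
Mzf1: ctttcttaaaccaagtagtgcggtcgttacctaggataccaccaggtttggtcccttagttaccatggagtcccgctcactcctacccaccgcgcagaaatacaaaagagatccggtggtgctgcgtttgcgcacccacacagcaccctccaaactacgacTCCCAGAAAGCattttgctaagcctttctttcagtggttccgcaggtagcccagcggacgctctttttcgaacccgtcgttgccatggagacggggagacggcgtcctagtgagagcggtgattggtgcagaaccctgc
The Ube2m window had 59.3% GC and 25 CpG dinucleotides, and the Mzf1 window had 55.0% GC and 19, against a median of 7 CpG over 32817 windows of the same length. The capitals lie at bases 212 to 221 in Ube2m and 162 to 172 in Mzf1. Of all windows, 4.59% held the NRF1-type motif and 3.56% the ZNF143-type motif, on either strand. CCAAT was found in Mzf1 on the opposite strand at bases 283 to 287, and in 37.4% of all windows. The letters GGGCGG (35.6% of all windows), TATAAA (13.6%), CACGTG (7.15%) and CCGGAA (14.9%) were in neither window. The motifs were chosen after these sequences were seen, none overlapped another, and a match of letters is not a measured binding site.

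The 14 libraries held 135881 to 1331965 allelic reads. Ube2m had 281 to 2745 of these per clone and Mzf1 had 38 to 266, so Mzf1 values carry much wider counting error. Levels are allelic reads scaled to library size (CPM) and are not scaled by gene length, so the levels of the pair are not compared with each other. Of 9 pluripotency markers, 0 were in the panel, as were 0 of 6 fibroblast and 0 of 5 ubiquitous genes, so the labelled cell type could not be checked. In bulk RNA, fewer cells that express a gene and less RNA per cell cannot be told apart.

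The 129 copy of Ube2m gave more than an even share of its RNA in all 6 clones deleted on CAST, and about an even share in both clones deleted on 129. In the clones deleted on CAST the 129 share was 59.8% in B8, 58.7% in D3, 59.0% in E3, 60.6% in E7, 57.0% in G3 and 55.3% in H7. In those deleted on 129 it was 49.5% in D10 (139 of 281 reads, Wilson 95% interval 43.7 to 55.3%) and 47.6% in D2. In the Chen2008-25 clones it was 55.65% in B4, 51.2% in C4, 54.9% in G2, 50.8% in H2, 52.7% in H4 and 51.4% in E6. The clones deleted on 129 lay below every other clone, and 5 of the 6 deleted on CAST lay above every Chen2008-25 clone, H7 being the exception. The 2 clones deleted on 129 lay below all 6 deleted on CAST in 4.37% of 435 panel genes, and below all Chen2008-25 clones in 7.91% of 430. The group means were 58.4% ± 1.94 (SD, n = 6) with the deletion on CAST, 48.6% ± 1.29 (SD, n = 2) with it on 129 and 52.8% ± 2.05 (SD, n = 6) in the Chen2008-25 clones.

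Mzf1 had more reads from CAST than from 129 in every clone. With each read taken as independent, the Wilson interval of the 129 share reached above 50% in D3 and H4, to 53.4% and 52.6%. Intervals on independent molecules may be wider. With the deletion on CAST its 129 share was 35.2% in B8, 47.4% in D3, 35.6% in E3, 38.5% in E7, 33.3% in G3 and 34.6% in H7. With the deletion on 129 it was 31.6% in D10 (12 of 38 reads, Wilson interval 19.1 to 47.5%) and 23.4% in D2 (50 of 214 reads, 18.2 to 29.5%). In the Chen2008-25 clones it was 38.0% in B4, 36.0% in C4, 24.1% in G2, 34.3% in H2, 40.0% in H4 and 35.7% in E6. Both clones deleted on 129 lay below all 6 deleted on CAST, as in 4.37% of 435 panel genes, but either group overlapped the Chen2008-25 clones. Mean shares were 37.4% ± 5.16 (SD, n = 6) with the deletion on CAST, 27.5% ± 5.81 (SD, n = 2) with it on 129 and 34.7% ± 5.57 (SD, n = 6) in the controls.

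**Figure D1:**
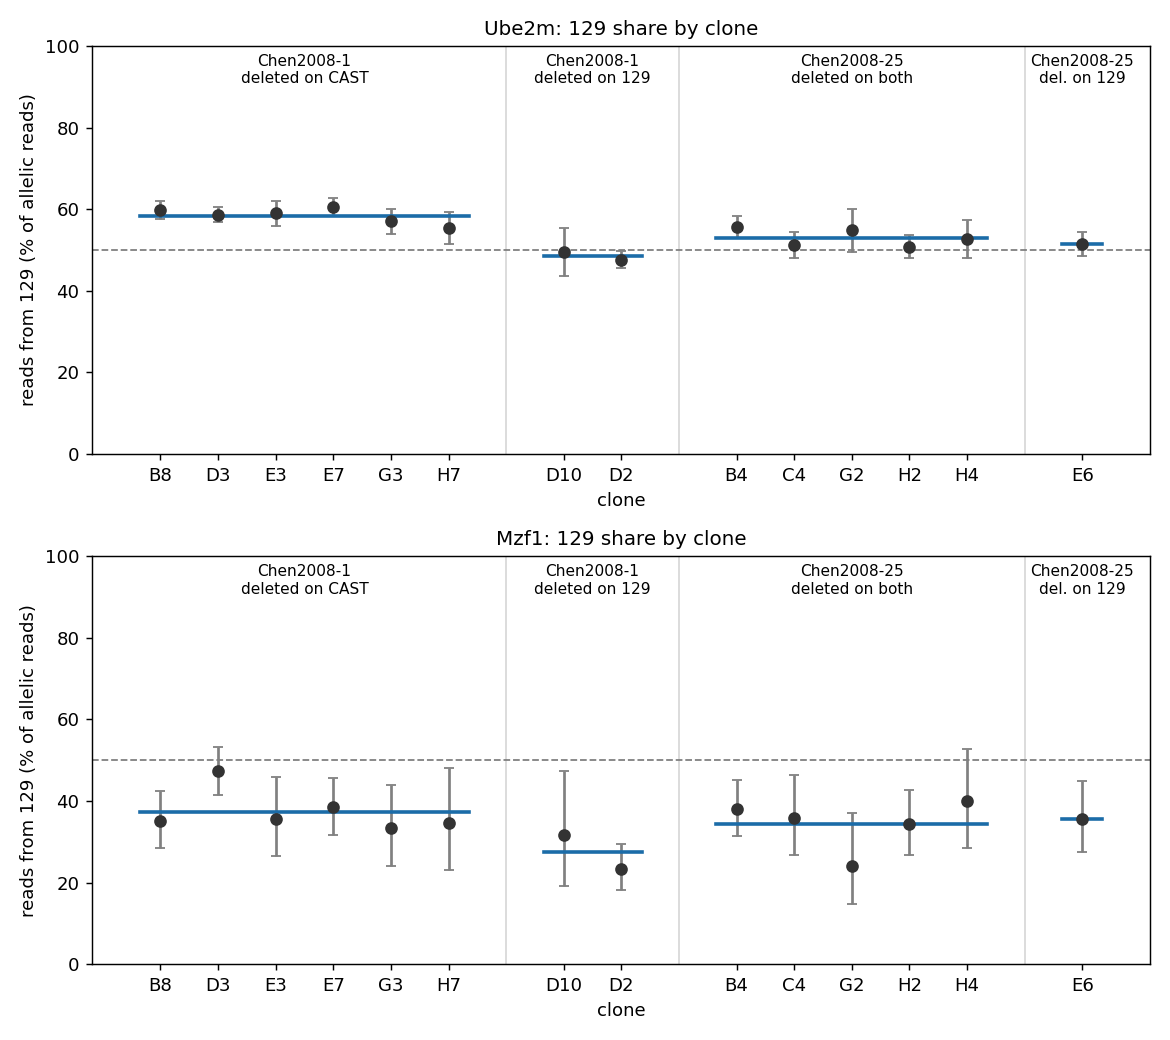
Share of allelic reads from the 129 copy of Ube2m (top) and Mzf1 (bottom) in each of the 14 clones, in percent. Points are clones with Wilson 95% intervals on reads, blue lines are group means and the dashed line is 50%. Ube2m sits between 55.3% and 60.6% with the deletion on CAST and at 47.6% and 49.5% with it on 129, while Mzf1 sits below 50% in all clones with wide intervals.

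The share does not say which copy moved, so each allele was read against the same allele of the Chen2008-25 clones. A level difference between the sets also holds any difference between the clones, so which copy moved still cannot be told. The unmodified copy of Ube2m was higher in the Chen2008-1 clones, and the modified copy was near or slightly above the level of the controls. With the deletion on CAST, the unmodified 129 copy of Ube2m was at 1202 CPM in B8, 1144 in D3, 1067 in E3, 1176 in E7, 1103 in G3 and 1027 in H7. The 129 copy in the Chen2008-25 clones was at 904 CPM in B4, 854 in C4, 798 in G2, 646 in H2, 731 in H4 and 936 in E6. All 6 clones deleted on CAST lay above all 6 controls. Of 448 panel genes, 16.3% were above without overlap in this comparison. The means were 1120 CPM ± 66.6 (SD, n = 6) and 812 CPM ± 109.5 (SD, n = 6), and the fitted difference was 0.47 on the log2 scale (SE 0.09, interval 0.28 to 0.66). Of 412 genes, 53.6% were called in this comparison.

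The unmodified CAST copy of Ube2m, present in the clones deleted on 129, was at 1122 CPM in D10 and 974 in D2. The CAST copy in the Chen2008-25 clones was at 721 CPM in B4, 813.5 in C4, 657 in G2, 626 in H2, 656 in H4 and 886.5 in E6. Both values lay above all controls. Of 448 panel genes, 23.4% were above without overlap here. The fitted log2 difference was 0.51 (SE 0.13, interval 0.24 to 0.77), in a comparison that called 37.0% of 395 genes. The unmodified copy was thus higher than its control on either parental chromosome.

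The modified CAST copy of Ube2m was at 808 CPM in B8, 805 in D3, 741 in E3, 764.5 in E7, 833 in G3 and 830 in H7. None of these 6 values lay outside the control range of the CAST copy, and the log2 difference was 0.13 (SE 0.09, interval -0.06 to 0.31). The modified 129 copy was at 1098 CPM in D10 and 886 in D2, against a control range of 646 to 936. D10 lay above that range and D2 within it, with a log2 difference of 0.26 (SE 0.13, interval -0.02 to 0.54). It was 0.13 without D10 and 0.38 without D2. Both intervals reach below 0, so a modified copy somewhat lower than the controls cannot be told from one that is higher.

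The deletion directions can also be set against each other within the Chen2008-1 set, where no Chen2008-25 clone enters. The CAST copy of Ube2m was higher where it was unmodified (1048 CPM ± 104.6, SD, n = 2) than where it was modified (797 CPM ± 36.6, SD, n = 6). Both clones lay above all 6, as in 2.46% of 448 panel genes, and the log2 difference was 0.38 (SE 0.13, interval 0.12 to 0.64). The 129 copy was at 992 CPM ± 149.6 (SD, n = 2) where modified and 1120 CPM ± 66.6 (SD, n = 6) where unmodified. Those groups overlapped, because D10 lay inside the range of the 6 clones, and the log2 difference was -0.20 (SE 0.13, interval -0.49 to 0.08). Without D10 it was -0.34 and without D2 -0.07. In these 2 comparisons the genes that passed an adjusted p of 0.05 in edgeR's quasi-likelihood test were Trim28 and Zbtb45, which is 0.485% of 412 genes for the 129 copy and 0.506% of 395 for the CAST copy.

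**Figure D2:**
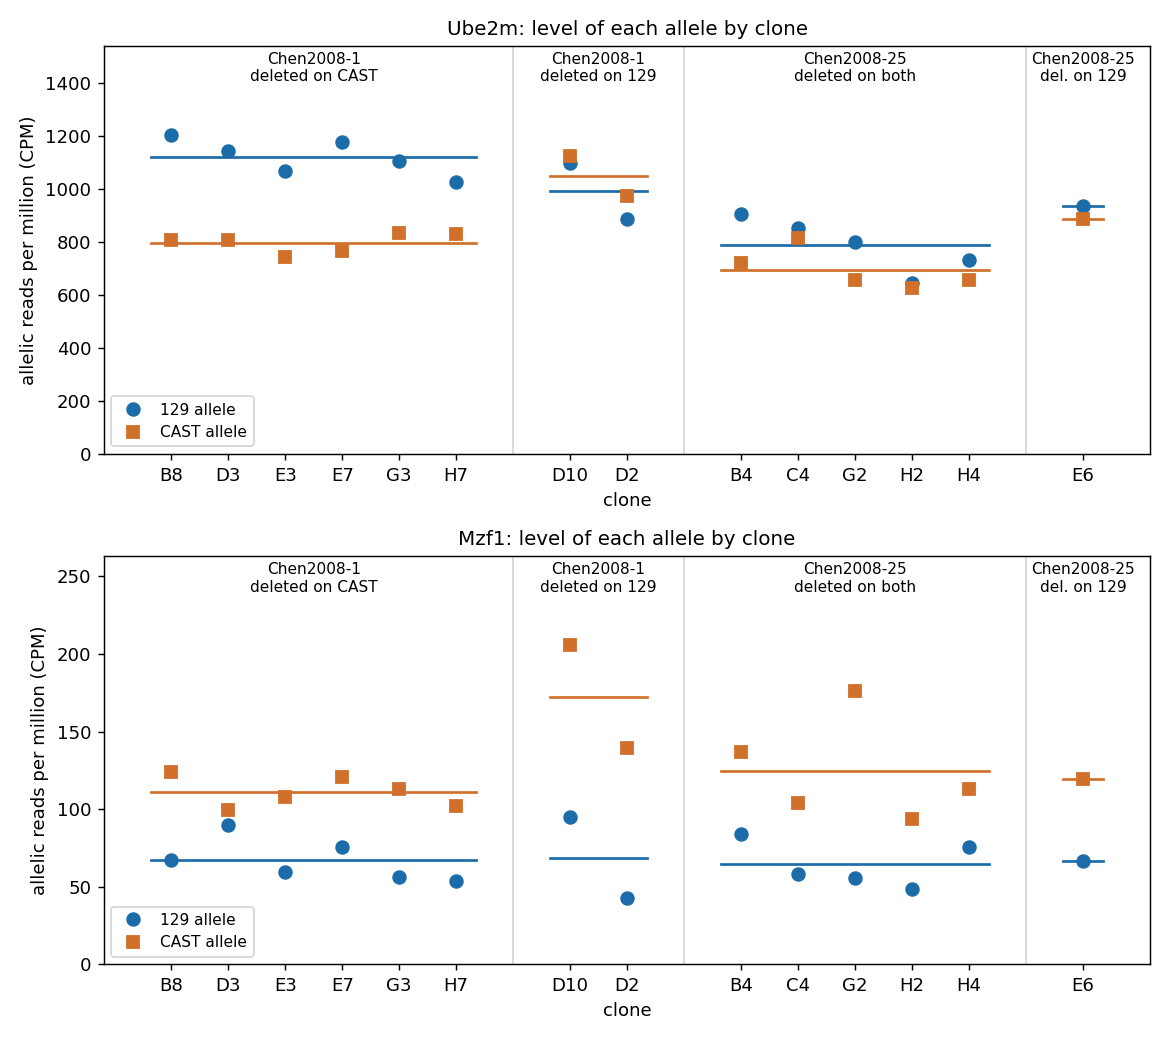
Level of the 129 copy (circles) and the CAST copy (squares) of Ube2m (top) and Mzf1 (bottom) in each clone, in CPM, with lines at the group means. For Ube2m the unmodified copy lies between 974 and 1202 CPM in the Chen2008-1 clones, while the modified CAST copy lies between 741 and 833 CPM, inside the range of the CAST copy in the Chen2008-25 clones.

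Mzf1 showed no such separation from the controls on either copy. Its 129 copy, unmodified with the deletion on CAST, was at 67.2 CPM in B8, 89.5 in D3, 59.6 in E3, 75.3 in E7, 56.5 in G3 and 53.9 in H7. In the Chen2008-25 clones it was at 83.9 CPM in B4, 58.2 in C4, 55.8 in G2, 48.8 in H2, 75.3 in H4 and 66.4 in E6. These ranges overlapped, and the log2 difference was 0.08 (SE 0.22, interval -0.38 to 0.54). Over left-out clones it ran from -0.06, without D3, to 0.17, without B4. The modified CAST copy of Mzf1 was at 111 CPM ± 9.84 (SD, n = 6) against 124 CPM ± 29.5 (SD, n = 6) in the controls, a log2 difference of -0.12 (SE 0.17, interval -0.48 to 0.23).

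In the clones deleted on 129, D10 and D2 differed widely for Mzf1. The modified 129 copy was at 94.8 CPM in D10 and 42.6 in D2, the highest and the lowest value of that copy in the 14 clones. Against the controls its log2 difference was -0.21 (SE 0.36, interval -0.96 to 0.54), and it was -0.61 without D10 and 0.49 without D2. The unmodified CAST copy was at 205.5 CPM in D10 and 139.6 in D2, against a control range of 93.3 to 176. Its log2 difference was 0.42 (SE 0.25, interval -0.10 to 0.95), or 0.20 without D10 and 0.70 without D2. Against the modified CAST copy of the 6 other Chen2008-1 clones it was 0.55 higher (SE 0.25, interval 0.03 to 1.06), or 0.33 without D10 and 0.84 without D2. Both clones lay above all 6, as in 2.46% of 448 panel genes. D10 was the shallowest library, with 12 and 26 reads of Mzf1 from the 2 copies.

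Combining both directions, the modified copy of Ube2m gave 80.6% as much RNA as the unmodified copy (interval 74.7 to 86.95%), a log2 effect of -0.31 (SE 0.05). For Mzf1 the value was 78.1% (63.0 to 96.9%), or -0.36 on the log2 scale (SE 0.15), and it rested partly on D2, without which it was -0.20. From the Chen2008-1 clones alone the estimates were -0.30 for Ube2m (SE 0.06) and -0.43 for Mzf1 (SE 0.18), the latter -0.22 without D2. Over left-out clones the Ube2m estimate ran from -0.33 to -0.29 with all clones and from -0.32 to -0.27 within the Chen2008-1 set. These contrasts were used in choosing the pair. Over the panel, edgeR called 0.893% of 448 genes with all clones and 0.901% of 444 within the Chen2008-1 set.

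Split by the chromosome that carries the deletion, the Ube2m effect was -0.26 on 129 (SE 0.12) and -0.35 on CAST (SE 0.08). The difference between directions was 0.09 (interval -0.24 to 0.43), and 0.04 to 0.18 over left-out clones. For Mzf1 the effects were -0.67 on 129 (SE 0.35) and -0.19 on CAST (SE 0.23), with a difference of -0.48 (interval -1.47 to 0.52). The Mzf1 effect on 129 was -0.24 without D2, which left a difference of -0.04, and the effect on CAST was -0.032 without D3 and -0.10 without the control clone G2. Neither interval shows that the directions act alike. Each direction alone is read against the Chen2008-25 clones, and 4.91% of 448 genes were called in the 129 direction and 11.6% in the CAST direction.

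Among the panel genes on this stretch of chromosome 7, estimates were most negative at Zbtb45 and Trim28. In panel order the genes run Zfp324, Zfp446, Slc27a5, Zbtb45, Trim28, Ube2m, Mzf1, 6330408A02Rik, Lig1 and Pla2g4c. On the Zbtb45 side the log2 effect was -0.55 in Zfp324 (SE 0.16) and -0.36 in Zfp446 (SE 0.08). Effects of the size seen in the pair were thus not particular to it. On the other side the log2 effect went from -1.12 in Trim28 (SE 0.03) to -0.31 in Ube2m and -0.36 in Mzf1. In the next gene, 6330408A02Rik, it was 0.02 (interval -0.26 to 0.29), and in the DNA ligase gene Lig1 it was -0.03 (interval -0.10 to 0.03). Pla2g4c, a phospholipase gene, was at -0.16 (interval -0.39 to 0.08). The estimates of Ube2m and Mzf1 could not be told apart from each other within their intervals. Of the 11 tested genes in the list of this neighbourhood, all 11 had an estimate below 0, the pair among them. Their median of -0.31, against 0.00 over all genes tested, is the estimate of Ube2m itself. The pair was chosen on this contrast, so that median says nothing more about the neighbourhood. 6330408A02Rik and Pla2g4c were not in that list and were added for their position after their values were seen. Chmp2a, annotated between Trim28 and Ube2m, was not analysed here.

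**Figure D3:**
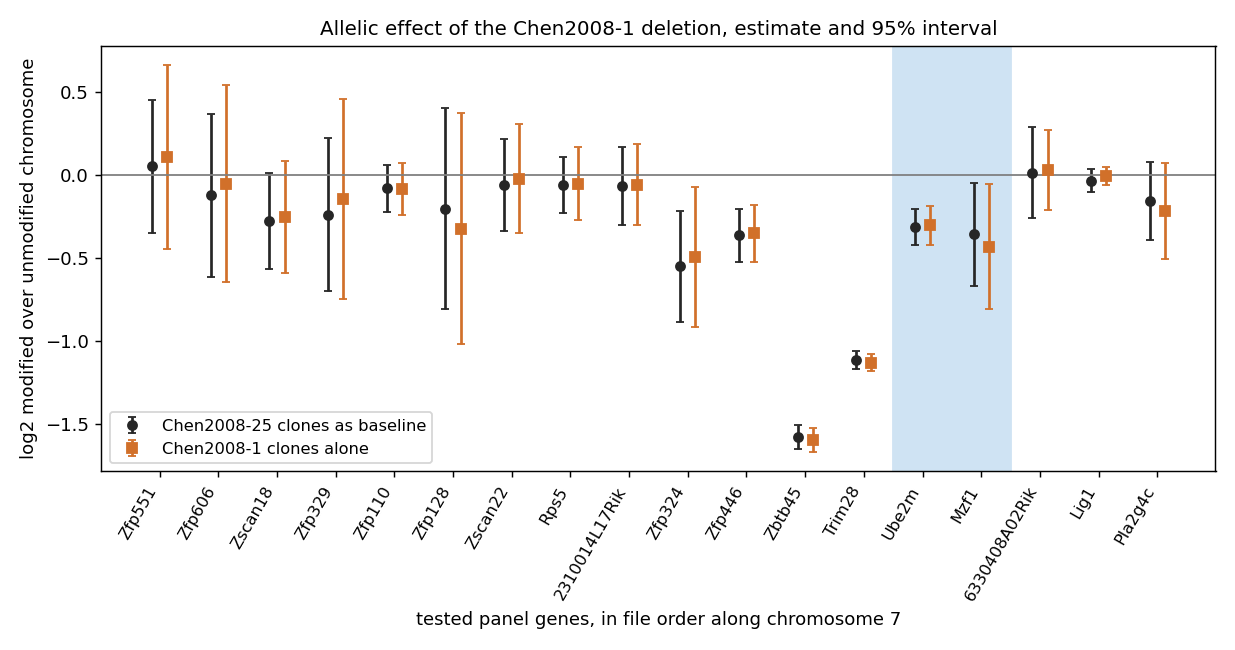
Log2 effect of the Chen2008-1 deletion, modified over unmodified chromosome, for tested panel genes in file order along chromosome 7, with the pair shaded. Points are estimates with 95% intervals, from all 14 clones (black) and from the Chen2008-1 clones alone (orange). Zbtb45 and Trim28 lie lowest, Ube2m and Mzf1 lie near -0.31 and -0.36, and Lig1 lies near 0.

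Each copy of Ube2m can be set beside the same copy of its neighbours, relative to the Chen2008-25 clones. The modified 129 and CAST copies of Trim28 were at log2 differences of -1.06 (SE 0.18) and -1.06 (SE 0.14) from the same copies of the Chen2008-25 clones. Its unmodified copies were at -0.01 (129, SE 0.12) and 0.16 (CAST, SE 0.20). For Ube2m the same 4 values were 0.26 and 0.13 for the modified copies and 0.47 and 0.51 for the unmodified ones. In both genes the modified copy had the lower value. Zbtb45 had unmodified copies at 0.46 and 0.55 and modified copies at -1.10 and -1.08. The modified copies of Zfp446 were at -0.34 (SE 0.14) and -0.31 (SE 0.10), and those of Mzf1 were at -0.21 and -0.12 with the wide intervals given above. These contrasts share their control clones, and the differences between genes were not tested.

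**Figure D4:**
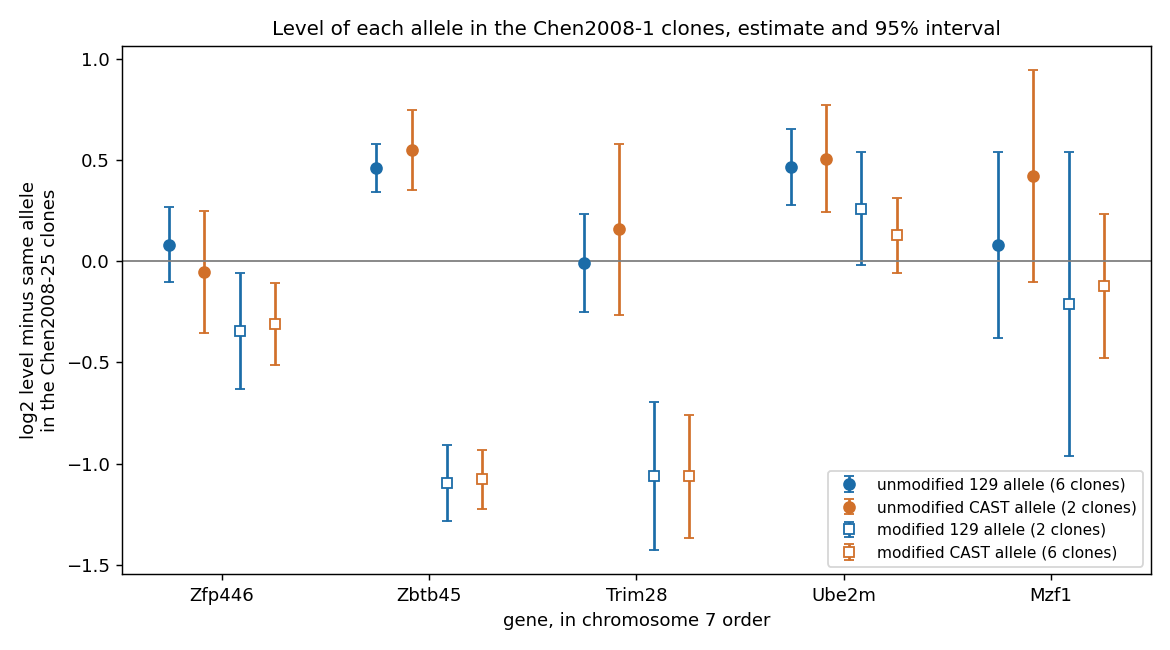
Log2 level of each allele in the Chen2008-1 clones minus the same allele in the Chen2008-25 clones, for Zfp446, Zbtb45, Trim28, Ube2m and Mzf1, with 95% intervals. Filled symbols are unmodified and open symbols modified copies, blue for 129 and orange for CAST. The open symbols of Trim28 and Zbtb45 lie near -1.06 to -1.10, those of Zfp446 and Mzf1 lie between -0.12 and -0.34, those of Ube2m lie at 0.13 and 0.26 and the filled symbols of Ube2m lie at 0.47 and 0.51.

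Summed over both copies, Ube2m was higher in the Chen2008-1 clones. Its total was 1948 CPM ± 127.7 (SD, n = 8), from 1808 to 2221, against 1538 CPM ± 203 (SD, n = 6), from 1271 to 1823, in the Chen2008-25 clones. E3 was the 1 clone of the 8 that lay inside the control range, below E6. The total stood at 126% of the controls (interval 113 to 141%), or 0.33 on the log2 scale (SE 0.08). Differences of this size between the clone sets were common, since 63.8% of 448 genes were called in this contrast. In size, whatever the sign, 47.1% had a smaller difference than Ube2m. With library sizes computed without the chromosome 7 neighbourhood, to which Trim28 belongs, the Ube2m difference was still 0.33.

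The total of Mzf1 was 194 CPM ± 45.1 (SD, n = 8) with the Chen2008-1 deletion and 188.5 CPM ± 34.0 (SD, n = 6) without it. The log2 difference was 0.02 (SE 0.15, interval -0.29 to 0.33), and -0.06 to 0.07 over left-out clones. D10, at 300.3 CPM, was the highest of the 14 clones. Between the 2 directions of the deletion, totals differed by 0.08 for Ube2m (SE 0.12, interval -0.17 to 0.32) and by 0.33 for Mzf1 (SE 0.22, interval -0.14 to 0.80). Without D10 the Mzf1 difference was 0.02 and without D2 it was 0.71, while that of Ube2m was -0.04 and 0.17. No gene of 448 passed in that comparison in edgeR, DESeq2 or limma, and 12 had an unadjusted p under 0.05 in edgeR.

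Markers of early differentiation moved with the clone set. Of 10 such markers 2 were in the panel, the keratin genes Krt8 and Krt18. Their summed level was 1016 to 2128 CPM in the Chen2008-1 clones and 187 to 373 CPM in the Chen2008-25 clones, without overlap. Of 448 panel genes, 18.1% had a total that was above without overlap in the Chen2008-1 clones. Their part in the Ube2m total was not tested.

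The Chen2008-25 clones keep the Chen2008-1 enhancer on both chromosomes, and the strain ratio of the pair there was not used to choose it. Mzf1 was read more from CAST in all 6 clones, as were 24.9% of 438 panel genes, and Ube2m slightly more from 129 in all 6, as were 29.2%. The 129 copy of Mzf1 gave 54.3% of the RNA of the CAST copy (interval 42.35 to 69.5%), a log2 ratio of -0.88 (SE 0.18, edgeR adjusted p = 5.62e-05). For Ube2m the 129 copy gave 111% (interval 102 to 121%), a log2 ratio of 0.15 (SE 0.06, edgeR adjusted p = 0.0322). Unequal copies were usual, since 64.0% of 436 genes were called. In size, whatever the sign, the log2 ratio was smaller than that of Mzf1 in 77.3% of genes and smaller than that of Ube2m in 25.2%. The exact sign-flip test over clones gave p = 0.03125 for each gene (two-sided, n = 6), the smallest that 6 clones allow. The Ube2m call rests on single clones: the ratio was 0.11 without B4 (edgeR adjusted p = 0.201) and 0.14 without G2 (adjusted p = 0.0617).

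Clone E6, with the Chen2008-25 deletion on 129 only, was compared with the 5 clones deleted on both chromosomes. Ube2m was at 936 CPM from 129, 886.5 from CAST and 1823 in total in E6, above all 5 other clones in each case. E6 lay above the other 5 in 20.8% (129), 19.4% (CAST) and 21.2% (total) of 448 panel genes, so this position was common. The log2 differences were 0.25 on 129 (SE 0.17, edgeR adjusted p = 0.834), 0.35 on CAST (SE 0.16, adjusted p = 0.62) and 0.30 in total (SE 0.14, adjusted p = 0.664). None passed, and the 129 over CAST ratio differed by -0.09 (interval -0.42 to 0.24, adjusted p = 0.987). For Mzf1, E6 lay inside the range of the other 5 clones in every measure. Its log2 differences were 0.04 on 129 (SE 0.44, edgeR adjusted p = 0.997), -0.03 on CAST (SE 0.39, adjusted p = 0.982), -0.01 in total (SE 0.32, adjusted p = 0.995) and 0.04 in the ratio (SE 0.47, adjusted p = 1).

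With 1 clone against 5, an exact permutation cannot give a p below 0.167, and the fit assumes that E6 varies like the others. The intervals leave room for sizeable differences, up to 0.62 for the Ube2m total. B3gnt7, on another chromosome, was the gene called in the ratio (0.229% of 436 genes), on CAST (0.261% of 383) and in total (0.229% of 436). On 129, 0 of 399 genes were called in edgeR, with 20 at an unadjusted p under 0.05, and 1 in DESeq2.

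Of 24 listed genes of the NEDD8 pathway, 3 were in the panel, Ube2m, Gps1 and Cops7b, and 0 of 8 cullin genes were. Gps1 and Cops7b encode subunits of the COP9 signalosome, which removes NEDD8 from cullins. In totals, edgeR called 1 of these 2 lower in the Chen2008-1 clones, where 29.5% of 448 genes were called lower. Cops7b was at 1147 CPM ± 120.4 (SD, n = 8) against 1348 CPM ± 143 (SD, n = 6) in the Chen2008-25 clones. Its log2 difference was -0.24 (SE 0.08, edgeR adjusted p = 0.0168). The Chen2008-25 clones carry a deletion of their own, whose effect on Cops7b was not tested, so which set moved cannot be told. Gps1 was at -0.24 (SE 0.12, adjusted p = 0.0823). The median of the 3 genes, -0.24 against 0.01 over all genes tested, is the Gps1 value itself. Ube2m is 1 of the 3 and was chosen on this contrast, so that median says nothing more about the pathway. The modified-over-unmodified effect was 0.00 for Gps1 (SE 0.12, interval -0.24 to 0.24) and 0.04 for Cops7b (SE 0.08, interval -0.12 to 0.19). Both intervals reach to either side of 0. For these genes, outside the listed neighbourhood, modified names only the parental genome that carries the deletion.

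Of 24 listed SCAN zinc-finger genes, 4 were in the panel: Mzf1, Zfp446, Zfp110 and Zscan22, all on chromosome 7. In the Chen2008-25 clones 3 of the 4 were called with more RNA from CAST, as were 122 of all 436 genes tested, and 64.0% were called in either direction. Zscan22 had a 129 over CAST log2 ratio of -1.36 (SE 0.15, edgeR adjusted p = 1.08e-09) and Zfp446 of -0.63 (SE 0.08, adjusted p = 2.23e-08), beside -0.88 for Mzf1. Zfp110 was at 0.02 (SE 0.06, adjusted p = 0.729). The list's median ratio was -0.76, against 0.06 over all genes tested. In totals between the clone sets Zfp110 fell by 0.33 (SE 0.07) in the Chen2008-1 clones. It was the 1 gene of the other 3 listed ones called lower, against 29.5% of all genes tested. The list is incomplete: Zscan18, a panel gene of the same stretch, was not in it and was added after its values were seen. Its 129 over CAST log2 ratio was 0.12 (interval -0.09 to 0.33), and its total differed by -1.12 (SE 0.11) between the clone sets.

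Of 14 partners of Trim28, counting Trim28 itself, 2 were in the panel, Trim28 and Cbx5. The modified copies of Trim28 were lower, as given above, so its lower total says nothing about its partners. Cbx5 alone is left, and it was called lower in the Chen2008-1 clones, as were 29.5% of all genes tested. The heterochromatin protein gene Cbx5 was at 1927 CPM ± 281 (SD, n = 8) against 3698 CPM ± 302 (SD, n = 6), and fell by 0.94 on the log2 scale (SE 0.08, edgeR adjusted p = 3.04e-08). Its modified-over-unmodified effect was -0.07 (SE 0.05, interval -0.19 to 0.04), where modified again names only the parental genome that carries the deletion.

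Across the 14 clones, the genes whose 129 over CAST ratio followed that of Ube2m most closely were its neighbours. Pearson's r over 14 clones was 0.907 with Zbtb45, 0.894 with Trim28 and 0.718 with Zfp446, the highest of 447 genes. Within the 8 Chen2008-1 clones the same values were 0.947, 0.940 and 0.765. Within the 6 Chen2008-25 clones, which keep the Chen2008-1 enhancer, they were 0.223, -0.248 and 0.093. The points share the deletion genotype, the clone set and the library. Mzf1 and Ube2m had an r of 0.485, or 0.756 and -0.291 within the respective sets. The ratio of Mzf1 was closest to those of Mb (0.683), Agxt2l2 (0.647) and Crlf3 (0.643), and that of Trim28 gave 0.57. At the depth of Mzf1 these weaker values are no finding.

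For total level, the closest genes to Ube2m were Parvg (r = 0.904), Cdkn1b (0.890) and Fam83h (0.886), and those closest to Mzf1 were Myo1d (0.679), Stx12 (0.612) and Loh12cr1 (0.578). Ube2m and Mzf1 had an r of 0.360 in total level, with 0.919 within the Chen2008-1 and 0.291 within the Chen2008-25 clones. D10, the shallowest library, had the highest total of both genes, from 281 and 38 reads, and r was not computed without it. Ube2m and Trim28 had an r of -0.489 over all clones, but 0.293 and -0.061 within the sets. The clones share their set, culture and library depth, so these values have no p.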

How the data were processed

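Poly(A)+ RNA of 14 clones was sequenced after hybrid selection, in which probes enrich chosen transcripts, with the same batch and probe set for all clones in the deposited genotype table. The deposited tables hold whole-number read counts per gene for the 129 and the CAST allele, per the file headers, and had not been normalized. Genotypes come from that deposited table, which holds text and other labels, per the file headers. Per the submitters' processing notes, reads were placed on mm9. The aligner, the allele assignment, the counter and its use of strand are not given in the sources used here. Of counts from 1 to 19, 78.5% to 88.6% per clone were even, as when both mates of a fragment are counted. Of 28 counts each, 25 were even for Mzf1 and 11 for Ube2m. Reads are thus not independent molecules. Wilson intervals take them as independent and leave out the spread between clones, so they may be too narrow, above all for Mzf1. Of 472 genes, 1 was left out because it repeats another row.

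Counts were fitted in R 4.3.3 with edgeR 4.0.16 (quasi-likelihood, TMM library sizes from allelic totals, genes with a mean of at least 10 reads per clone, Benjamini-Hochberg over all genes tested, threshold 0.05). DESeq2 1.42.0 and limma 3.58.1 were alternatives, and the closing section gives their effect with that of other filters, halved counts, other library sizes and leaving out each clone. The modified-over-unmodified effect is the allele by deletion term of a fit with a term for each clone. The fits were tested on simulated data. All intervals are 95% intervals. Levels (CPM) are each allele's counts over the TMM library size of the clone, and log2 ratios of single clones used 0.5 added reads. Shares, group means and exact tests were computed in Python 3.11.15 with scipy 1.17.1.

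The members, gene lists and comparisons were chosen with earlier results of these data known. Genes were named if they were Ube2m or Mzf1, belonged to the listed chromosome 7 neighbourhood, NEDD8, cullin, Trim28 partner or SCAN genes, or were among the 3 closest in pattern. In all 26 pairs of clones of 1 genotype, counts differed by more than sampling noise (chi-square over degrees of freedom from 3.47 to 25.9), so each is 1 sample. All come from 1 hybrid line, and p-values measure only the spread between its clones. Promoter sequences are RefSeq windows of build GRCm38.p6, matched by symbol for both genes. Where a gene had several windows, the one whose start matched the gene's end in the GENCODE annotation was used.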

Additional observations from a re-analysis of the deposited data

Results flagged for a closer look

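In the group of 6 clones deleted on CAST, the 129 share of Mzf1 in clone D3 stood apart. It was 47.37%, while the other 5 clones lay between 33.3% and 38.5%. The gap from D3 to its nearest clone was 0.635 of the whole range, above the critical value of 0.625 for 6 samples. Chance alone marks about 1 group in 20, and 16 groups were tested. D3 had 266 reads of Mzf1, the most of any clone.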

How the results depend on the processing

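For Ube2m, 372 recomputed values kept their direction and side of the threshold or, where described without a test, moved by less than 1 SD between clones. The exceptions were the 2 strain ratios without B4 or G2. Over left-out clones that ratio ran from 0.11 to 0.18. For Mzf1, 350 recomputed values did so, 12 moved by more and 8 tested values changed sign. The 12 all came from leaving out D10 or D2. Over left-out clones the combined Mzf1 effect ran from -0.39 to -0.20, and from -0.52 to -0.22 within the Chen2008-1 set. Over left-out clones the Mzf1 effect ran from -0.83 to -0.24 on 129, and the difference between directions from -0.66 to -0.041. The Mzf1 level in the clones deleted on 129 ran from -0.61 to 0.49 (129), 0.20 to 0.70 (CAST) and -0.034 to 0.63 (total) against the Chen2008-25 clones. Against the clones deleted on CAST it ran from -0.69 to 0.43, 0.33 to 0.84 and 0.024 to 0.71.

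The sign changes among tested values were in E6 against the clones deleted on both chromosomes, where Mzf1 lay near 0. Its difference ran over left-out clones from -0.077 to 0.17 (129), -0.12 to 0.098 (CAST), -0.10 to 0.064 (total) and -0.072 to 0.11 (ratio). With halved counts it was 0.027 on CAST (edgeR adjusted p = 0.99) and 0.035 in total (adjusted p = 0.98).

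Counts of called genes moved as follows, and the causes were not tested. For the modified-over-unmodified effect the 4 calls became 27 with deletions on 129 alone, 56 with deletions on CAST alone and 15 without D2, a range of 4 to 15 over left-out clones. From the Chen2008-1 clones alone, 2 genes passed with a pseudocount of 1 or 5 in limma, and 2 to 6 over left-out clones. By direction, limma gave 13 and 14 calls on 129 with pseudocounts of 1 and 5, and 28 on CAST with a pseudocount of 1. Over left-out clones the calls ran from 14 to 25 on 129 and from 22 to 53 for the difference. For level against the Chen2008-25 clones, calls with deletions on 129 ran from 99 to 168 (129), 89 to 155 (CAST) and 131 to 210 (total). Between the directions they ran from 1 to 3 on 129. For E6, DESeq2, a minimum mean of 50 reads and halved counts each gave 1 call on 129, 2 on CAST and 2 in total, and limma with a pseudocount of 5 gave 0 in the ratio and on CAST. Over left-out clones the calls ran from 1 to 2 (ratio), 0 to 2 (129), 1 to 9 (CAST) and 0 to 3 (total).

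A minimum mean of 50 reads left Mzf1 out of the test of its 129 copy, so that value was not obtained. Depth limits Mzf1 most, with as few as 38 reads in a clone. No paired analysis was possible because the labels give the clones no replicate numbers.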
